A study of Mus musculus with 16 samples.

Results

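The 33 genes described here make, sense and move cholesterol. They were taken as a fixed list of gene names, and all 33 were found by symbol among the 50686 genes of the count files. By role, 8 encode enzymes from acetyl-CoA to the isoprenoid pyrophosphates, 12 encode enzymes from farnesyl pyrophosphate to cholesterol, 5 encode the SREBP transcription factors and the proteins that hold or carry them, 4 act in sterol transport and storage, and 4 belong to the LXR and efflux side.

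RNA was sequenced from BCR-ABL1p185+ mouse cell lines, which model B-cell acute lymphoblastic leukemia. The lines came from bone marrow of the C57BL/6N strain infected with a BCR-ABL1p185 retrovirus, and 4 lines of each genotype were used. Control lines carried floxed Cdk8 without deletion (Cdk8 fl/fl, labelled wildtype), and Cdk8 Δ/Δ lines (labelled Cdk8 KO) had lost it through Vav-Cre, a recombinase driven in all blood-forming cells. Each line was cultured in RPMI medium with 10% FCS and 0.01% DMSO or 1 µM Senexin B, an inhibitor of CDK8 and its paralog CDK19, for 48 h. This gave 4 groups of 4 libraries, and all lines shared the oncogene and the medium. The DMSO and Senexin B libraries with one number within a genotype come from one line, whereas line 1 of the fl/fl lines and line 1 of the Δ/Δ lines are different lines. Each group is thus 4 established lines, 1 library per line and treatment. In fits without a block, p-values rest on the spread among these lines within a group. Where both treatments enter such a fit, the 2 libraries of a line are treated as independent. In Senexin B fits with the line as a block, which set each line against itself, p-values rest on the spread of the change among lines.

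Cells build cholesterol from acetyl-CoA through mevalonate, isoprenoid pyrophosphates, squalene and lanosterol. When sterols run low in the endoplasmic reticulum, SCAP escorts SREBP2 to the Golgi, where proteases free its transcription factor domain, which then switches on genes for sterol synthesis and uptake. INSIG proteins hold SCAP back when sterols are plentiful, and oxysterols meanwhile activate LXR, which turns on the efflux transporters ABCA1 and ABCG1 and MYLIP, a ubiquitin ligase that limits lipoprotein uptake. Dividing lymphoid cells depend on this pathway for membranes and for the isoprenoid anchors of small GTPases.

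Reads assigned to genes totalled 13145876 to 18349425 in each library. The 7 B-lineage markers, Cd79a and Pax5 among them, summed to 4684 to 7246 CPM (counts scaled to library size, normalized by edgeR's TMM method), and each had at least 1371 counts in every library. The 4 T-lineage markers summed to at most 0.139 CPM, and the 6 myeloid markers to between 0.44 and 24.7 CPM, with Elane at 0 in all 16 libraries. Cdk8 RNA over the whole gene, which includes exons outside the deleted part, was 61.7 to 68.6 CPM in fl/fl DMSO libraries and 35.3 to 52.0 CPM in Δ/Δ DMSO libraries. In Senexin B libraries it was 55.1 to 89.2 CPM and 41.1 to 61.7 CPM, which overlapped. No 2 libraries were copies of one another (120 pairs, lowest chi-square per gene 23.4).

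Sterol-responsive promoters often pair an SREBP site with a CCAAT box bound by NF-Y, and 4 promoters of the list are shown. Those of Acat2, Hmgcs1 and Insig1 hold a match to a short core of the sterol element, and only Hmgcs1 one to its longer form. That of Mvd is shown because its gene is among the first 3 by p in 3 comparisons. The 4 are RefSeq promoters of GRCm38.p6, from 250 bases before to 50 after the transcript start, read on the strand of the gene. Capitals mark matches, on either strand, to CACNCCAC (a core of the sterol element, also found as TCACNCCAC), CACGTG, which is an E-box, and the NF-Y box CCAAT.
Hmgcs1, chr13:119690101-119690400, plus strand: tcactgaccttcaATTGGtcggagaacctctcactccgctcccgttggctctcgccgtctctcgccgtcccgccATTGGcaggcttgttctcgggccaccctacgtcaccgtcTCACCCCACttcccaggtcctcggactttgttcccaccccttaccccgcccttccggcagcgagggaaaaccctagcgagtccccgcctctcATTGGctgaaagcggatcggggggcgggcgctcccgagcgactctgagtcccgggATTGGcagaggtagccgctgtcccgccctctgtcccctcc
Insig1, chr5:28071162-28071461, plus strand: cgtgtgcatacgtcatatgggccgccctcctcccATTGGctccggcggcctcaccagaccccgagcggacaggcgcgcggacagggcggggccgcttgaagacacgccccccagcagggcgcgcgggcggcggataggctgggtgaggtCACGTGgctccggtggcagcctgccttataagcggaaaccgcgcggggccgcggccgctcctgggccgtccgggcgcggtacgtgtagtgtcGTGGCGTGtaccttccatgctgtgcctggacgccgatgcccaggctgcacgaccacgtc
Acat2, chr17:12960676-12960975, minus strand: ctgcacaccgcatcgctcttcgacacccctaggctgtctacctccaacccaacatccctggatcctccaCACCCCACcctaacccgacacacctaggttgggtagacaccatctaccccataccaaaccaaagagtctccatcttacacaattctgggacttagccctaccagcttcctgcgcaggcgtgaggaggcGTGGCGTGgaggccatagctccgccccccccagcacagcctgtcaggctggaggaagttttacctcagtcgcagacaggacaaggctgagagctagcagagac
Mvd, chr8:122443373-122443672, minus strand: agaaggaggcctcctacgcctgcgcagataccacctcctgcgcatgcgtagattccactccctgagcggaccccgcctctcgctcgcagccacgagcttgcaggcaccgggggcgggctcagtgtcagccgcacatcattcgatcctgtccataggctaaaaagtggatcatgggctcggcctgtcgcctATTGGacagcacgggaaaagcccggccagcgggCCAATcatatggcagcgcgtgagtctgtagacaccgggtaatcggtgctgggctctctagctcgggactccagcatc
Promoters were found for 27 of the 33 genes, 35 sequences in all, and none for Abcg1, Fdft1, Fdps, Npc1, Sqle and Stard4. TCACNCCAC occurred in 1 of the 35 (Hmgcs1), against 1.24% of all 32851 promoters of the same length. The shorter CACNCCAC, which every longer match contains, occurred in 3 (Acat2, Hmgcs1 and Insig1) against 6.24%. CACGTG occurred in 7 of the 35, from 6 genes (Abca1, Dhcr7, Hsd17b7, Insig1, Sc5d and Scap), against 7.15%. CCAAT occurred in 24 of the 35 against 37.4%, with 4 matches each in Hmgcs1 and Nsdhl and 5 in Mvk. These are matches of letters in a short window and no measurement of binding.

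Levels of different genes were compared only per exon length, as CPM per kilobase. Over the 16 libraries Npc2, a lysosomal carrier of cholesterol, had the highest mean (122 CPM per kilobase), followed by Lbr (99.7), a nuclear envelope protein with sterol C14 reductase activity, and Srebf2 (75.7). At the other end were Tm7sf2 (1.98), the second sterol C14 reductase, Idi1 (1.71) and Abca1 (0.0828). Within the fl/fl DMSO group the SD over the 4 lines was 44.3 around 91.6 CPM per kilobase for Npc2, 13.8 around 109 for Lbr and 17.2 around 73.6 for Srebf2, so Npc2 did not differ from either of the others beyond its spread among lines, whereas Lbr and Srebf2 lay further apart than either SD. Exons of 10 of the 33 genes share bases with another annotated gene, most in Fdft1 (26.8% of its exon bases, with Ctsb) and Fdps (26.7%, with Gm43738). Reads in shared stretches are not counted by featureCounts unless it is told to, so levels of such genes may be too low.

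Among the enzymes of the first stretch, Hmgcs1 (ENSMUSG00000093930, chromosome 13, 119690462 to 119708086, GRCm38), which makes HMG-CoA, was at 63.4, 62.8, 67.5 and 51.8 CPM in lines 1 to 4 of the fl/fl DMSO group. With Senexin B the same lines had 36.7, 118, 219 and 168 CPM of Hmgcs1. The Δ/Δ lines had 121, 102, 45.3 and 143 CPM in DMSO and 49.3, 82.4, 106 and 176 CPM with Senexin B. In DMSO, Δ/Δ lines 1, 2 and 4 lay above all 4 fl/fl lines and Δ/Δ line 3 below them, and with Senexin B, fl/fl lines 2 to 4 lay above all fl/fl DMSO lines and fl/fl line 1 below them. In bulk RNA, fewer cells that express a gene and less RNA of it per cell cannot be told apart.

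Acat2 (chromosome 17, 12942890 to 12960747), the thiolase that opens the pathway, had 23.7, 19.0, 24.2 and 21.5 CPM in fl/fl DMSO lines and 15.0, 95.1, 88.6 and 44.4 CPM with Senexin B. In Δ/Δ lines Acat2 was at 45.5, 41.2, 22.5 and 53.5 CPM in DMSO and at 12.2, 45.3, 46.5 and 56.8 CPM with Senexin B. Lines 2 to 4 of the fl/fl genotype were again high with Senexin B, and line 1 of either genotype was the low line of its Senexin B group. Mvd (chromosome 8, 122433601 to 122443422), which decarboxylates mevalonate pyrophosphate, was at 23.7, 25.4, 17.9 and 18.5 CPM and, with Senexin B, at 15.7, 116, 72.2 and 46.7 CPM in fl/fl lines. The Δ/Δ lines had 33.6, 40.9, 21.1 and 46.0 CPM of Mvd in DMSO and 10.6, 34.9, 49.8 and 46.9 CPM with Senexin B. Between the lowest and the highest of the 16 libraries Mvd spanned 11.0-fold.

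Idi1 (chromosome 13, 8885501 to 8892451) interconverts the 2 isoprenoid building blocks and was a gene of low level. Its fl/fl lines had 5.66, 3.58, 4.45 and 2.52 CPM in DMSO and 4.60, 7.85, 12.7 and 9.30 CPM with Senexin B. Its Δ/Δ lines had 7.73, 7.32, 2.41 and 10.0 CPM in DMSO and 2.75, 3.50, 2.24 and 9.25 CPM with Senexin B. Idi1 was lower with Senexin B in all 4 Δ/Δ lines, but in line 3 only from 38 to 37 counts and in line 4 from 136 to 133. Hmgcs1 was higher in both of those lines. Over the 8 lines the changes of Idi1 and Hmgcs1 still had a Pearson correlation of 0.88. Fdps (chromosome 3, 89093588 to 89101959), which makes farnesyl pyrophosphate, had 14.9, 21.2, 20.2 and 23.6 CPM in fl/fl DMSO lines and 12.9, 80.8, 41.5 and 38.4 CPM with Senexin B. In Δ/Δ lines Fdps had 30.0, 22.2, 11.5 and 39.0 CPM in DMSO and 7.86, 35.6, 29.6 and 45.4 CPM with Senexin B, a span of 10.3-fold over all libraries. Pmvk (chromosome 3, 89454541 to 89469013), the phosphomevalonate kinase, had 6.00, 7.17, 8.73 and 7.55 CPM in fl/fl DMSO lines and 8.70, 18.5, 20.6 and 9.61 CPM with Senexin B. It was higher with Senexin B in all 4 fl/fl lines, line 1 included. Its Δ/Δ lines had 9.28, 10.8, 6.72 and 12.7 CPM in DMSO and 5.57, 11.1, 13.2 and 14.9 CPM with Senexin B. Mvk, mevalonate kinase, ran from 9.71 to 31.8 CPM and Ggps1, which makes geranylgeranyl pyrophosphate, from 15.3 to 43.4 CPM, with its highest library in Δ/Δ DMSO line 1.

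In the stretch from squalene to cholesterol, Sqle (chromosome 15, 59315077 to 59331192), the squalene epoxidase, had 131, 159.8, 151 and 121 CPM in fl/fl DMSO lines and 91.1, 252, 309.7 and 275 CPM with Senexin B. Its Δ/Δ lines had 359, 233, 118 and 226 CPM in DMSO and 193, 199, 204 and 241 CPM with Senexin B. Δ/Δ line 1 in DMSO was the highest library for Sqle, which sets this gene apart from Mvd and Fdps, whose highest library was fl/fl line 2 with Senexin B. Lss (chromosome 10, 76531588 to 76557138), which folds the epoxide into lanosterol, was at 56.5, 37.7, 36.4 and 29.4 CPM in fl/fl DMSO lines and at 41.7, 117, 109.8 and 79.3 CPM with Senexin B. The Δ/Δ lines had 46.0, 58.9, 29.7 and 71.5 CPM of Lss in DMSO and 26.3, 72.4, 72.9 and 83.3 CPM with Senexin B. Among the 4 fl/fl lines, line 1 was the highest for Lss in DMSO and the lowest with Senexin B.

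Nsdhl (chromosome X, 72918557 to 72958514), a sterol dehydrogenase that removes C4 methyl groups, had the widest range of the list, 12.1-fold. It was at 49.1, 81.8, 46.9 and 38.1 CPM in fl/fl DMSO lines and at 34.3, 357, 162 and 106 CPM with Senexin B. In Δ/Δ lines Nsdhl had 74.7, 75.0, 50.5 and 102 CPM in DMSO and 29.4, 97.9, 112 and 129.6 CPM with Senexin B. The top value belonged to fl/fl line 2 and the lowest to Δ/Δ line 1, both with Senexin B. Sc5d (chromosome 9, 42251595 to 42264256), the lathosterol oxidase, varied less, with 84.6, 104, 122 and 102 CPM in fl/fl DMSO lines and 105, 215, 174 and 107 CPM with Senexin B. Its Δ/Δ lines had 99.5, 99.7, 73.7 and 116 CPM in DMSO and 113, 135, 110.3 and 113 CPM with Senexin B. All 4 fl/fl lines and Δ/Δ lines 1 to 3 had more Sc5d with Senexin B than in DMSO.

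The other enzymes of this stretch differed in spread, and the 2.91-fold span of Sc5d lay between the wider and the narrower of them. Fdft1 (squalene synthase), Dhcr7 (the last step by 1 of the 2 routes), Msmo1, Hsd17b7 and Cyp51 spanned between 3.42-fold and 6.44-fold over the 16 libraries. Lbr, Tm7sf2 and Ebp spanned 2.34-fold, 2.59-fold and 1.99-fold. Ebp, though narrow in range, had its highest library in fl/fl line 2 and its lowest in fl/fl line 1, both with Senexin B. The map of all 33 genes by library shows the enzymes of wider span as rows that light up in the same columns.

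**Figure D1:**
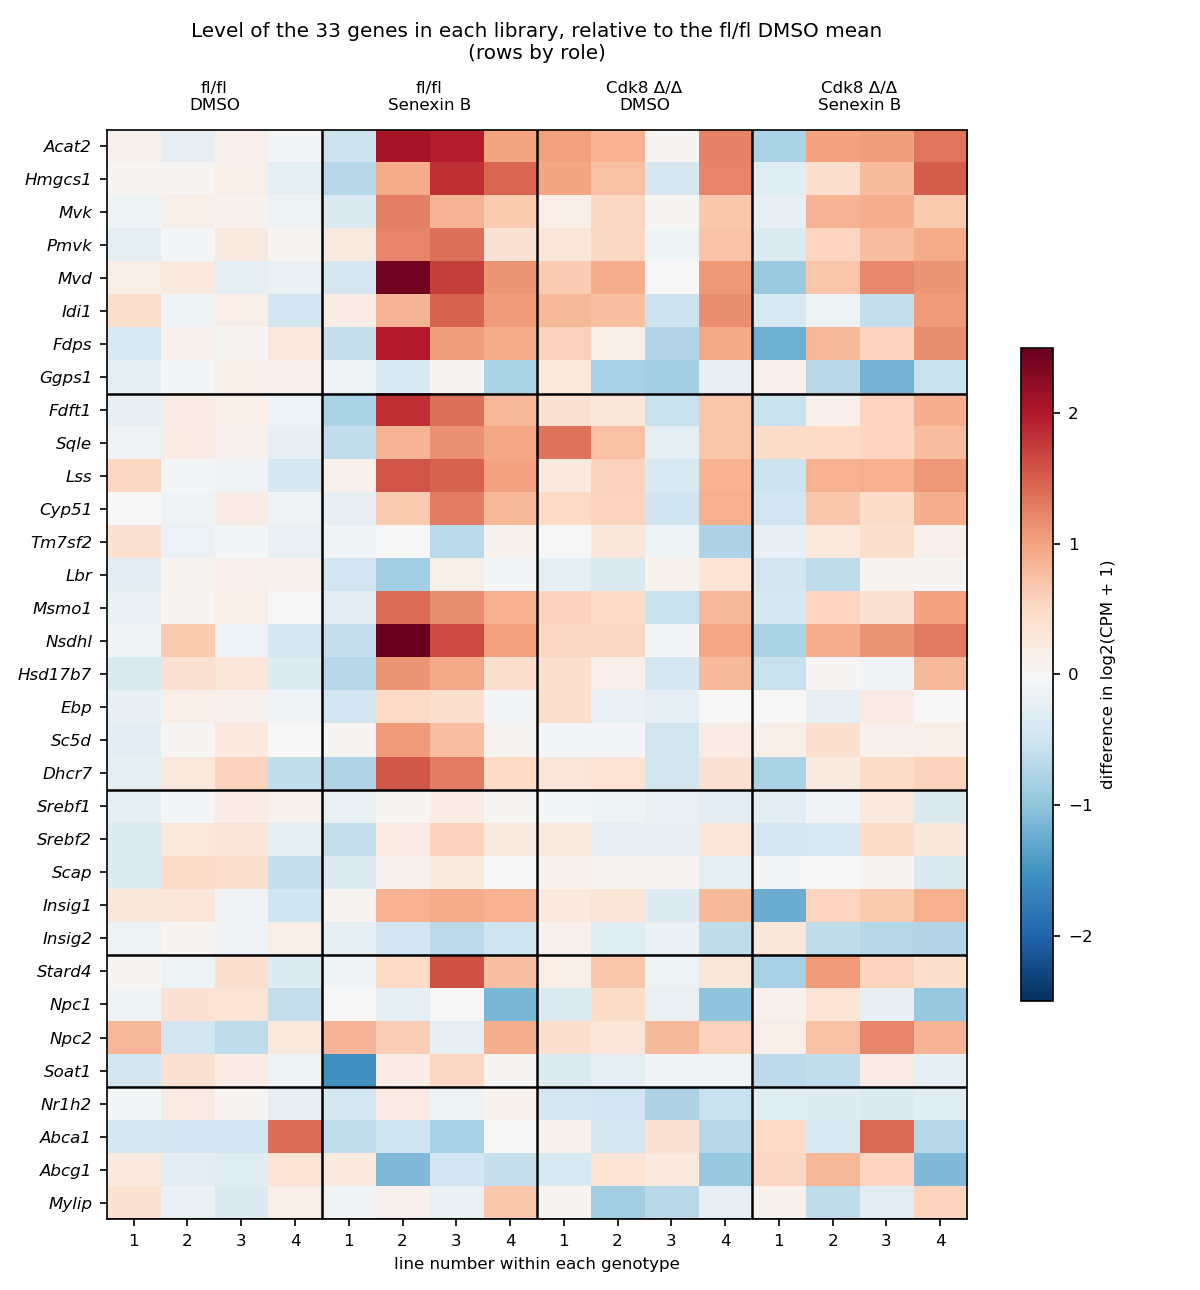
Difference of log2(CPM + 1) from the mean of the 4 fl/fl DMSO lines for the 33 genes (rows, ordered by role) in the 16 libraries (columns, by group and line number). Most synthesis genes were high in fl/fl lines 2 to 4 with Senexin B and low in fl/fl line 1 and Δ/Δ line 1 with Senexin B, whereas Srebf1 had the narrowest range (1.54-fold), and Srebf2 spanned 2.27-fold with its highest and lowest libraries in fl/fl lines 3 and 1 with Senexin B.

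Over the 20 enzymes, the median difference from the fl/fl DMSO mean of log2(CPM + 1) put the libraries in an order. The fl/fl DMSO lines lay between -0.15 and 0.14. Δ/Δ DMSO lines 1, 2 and 4 lay at 0.44, 0.51 and 0.76 and line 3 at -0.40. With Senexin B, fl/fl lines 2 to 4 lay at 1.17, 1.21 and 0.83 and line 1 at -0.44, and Δ/Δ lines 1 to 4 lay at -0.43, 0.46, 0.51 and 0.91. Of the 20 enzymes, 12 had their highest library in fl/fl line 2 with Senexin B and 4 in fl/fl line 3, and 13 had their lowest in line 1 of either genotype with Senexin B (6 in fl/fl and 7 in Δ/Δ). Across the 16 libraries 149 of the 190 pairs of enzymes had a positive Pearson correlation of log2(CPM + 1), with a median of 0.71, as a description of libraries that share lines. Cyp51 (0.95) and Msmo1 (0.91) ran closest to Hmgcs1, and Tm7sf2 (-0.17) and Ggps1 (-0.20) did not run with it.

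Among the sensors, Srebf2 (chromosome 15, 82147266 to 82205376), which encodes SREBP2, had 284, 433, 449 and 303 CPM in fl/fl DMSO lines and 238, 414, 539 and 419 CPM with Senexin B. The Δ/Δ lines had 420.2, 312, 312 and 443 CPM of Srebf2 in DMSO and 268, 276, 494 and 440.4 CPM with Senexin B. Its groups overlapped in all comparisons. Srebf1 (chromosome 11, 60199089 to 60222581), which encodes the SREBP1 forms, was steadier still, with 189, 212, 249.9 and 232 CPM in fl/fl DMSO lines and 193, 228, 249.7 and 225 CPM with Senexin B. Its Δ/Δ lines had 212, 204, 194 and 182 CPM in DMSO and 183, 209.6, 262 and 170.2 CPM with Senexin B. The 1.54-fold span of Srebf1 over the 16 libraries was the narrowest of the list.

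Insig1 (chromosome 5, 28071363 to 28078662), a retention protein that is itself an SREBP target, had 61.8, 63.0, 47.8 and 35.9 CPM in fl/fl DMSO lines and 53.1, 93.5, 97.3 and 94.0 CPM with Senexin B. In Δ/Δ lines Insig1 had 60.2, 64.1, 40.5 and 89.9 CPM in DMSO and 21.1, 74.2, 80.1 and 95.0 CPM with Senexin B. Insig1 was lower with Senexin B in line 1 of both genotypes and higher in the other 6 lines. Its paralog Insig2 went the other way: it was lower with Senexin B in all 4 fl/fl lines and in Δ/Δ lines 2 to 4, within 12.5 to 26.3 CPM, and its Pearson correlation with Hmgcs1 over the 16 libraries was -0.68. Scap ran from 107 to 225 CPM, with both ends in fl/fl DMSO lines.

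Stard4 (ENSMUSG00000024378), a soluble sterol carrier under SREBP control, had 100.0, 89.4, 128 and 77.8 CPM in fl/fl DMSO lines and 92.4, 137, 297 and 165 CPM with Senexin B. Its Δ/Δ lines had 109, 159, 89.4 and 119 CPM in DMSO and 54.9, 204, 143 and 131 CPM with Senexin B. Stard4 was thus high in the fl/fl lines in which Hmgcs1 was high, line 3 above all. Npc2 ran from 175 to 643 CPM, and Npc1, its membrane partner in the lysosome, from 21.4 to 67.3 CPM. Soat1, which esterifies cholesterol for storage, ran from 21.3 to 91.9 CPM, and its lowest library was fl/fl line 1 with Senexin B.

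On the LXR side, Nr1h2 (ENSMUSG00000060601, chromosome 7, 44549616 to 44553951), which encodes LXR beta, had 94.2, 111, 100.2 and 84.2 CPM in fl/fl DMSO lines and 71.9, 69.2, 56.7 and 66.0 CPM in Δ/Δ DMSO lines. These groups did not overlap. With Senexin B, Nr1h2 had 70.8, 112, 89.1 and 104 CPM in fl/fl lines and 78.2, 77.4, 75.3 and 78.5 CPM in Δ/Δ lines, and fl/fl line 1 lay below the Δ/Δ lines. Abcg1 (chromosome 17, 31057698 to 31115777), an efflux transporter, had 116, 79.9, 78.5 and 124 CPM in fl/fl DMSO lines and 117, 45.0, 69.3 and 65.0 CPM with Senexin B. Its Δ/Δ lines had 74.3, 124, 116 and 50.0 CPM in DMSO and 140.4, 174, 143 and 44.7 CPM with Senexin B. Abcg1 was higher with Senexin B in Δ/Δ lines 1 to 3 and lower in fl/fl lines 2 to 4.

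Mylip (chromosome 13, 45389742 to 45412019) had 43.5, 29.3, 25.6 and 36.8 CPM in fl/fl DMSO lines and 31.4, 35.6, 29.1 and 53.4 CPM with Senexin B. In Δ/Δ lines Mylip had 34.3, 17.6, 20.2 and 28.5 CPM in DMSO and 35.2, 20.9, 27.0 and 48.9 CPM with Senexin B, higher in all 4. Abca1 (chromosome 4, 53030787 to 53159895) was near the detection limit. It had 5, 4, 5 and 52 counts in fl/fl DMSO lines, 2, 3, 0 and 10 with Senexin B, 14, 5, 20 and 1 in Δ/Δ DMSO lines and 26, 5, 61 and 1 with Senexin B. As few as 0 counts still allow 3, and with all libraries of a comparison in the fit Abca1 passed the filter on low counts in Δ/Δ lines, over 8 lines and in the interaction, so 32 of the 33 genes were tested in the other 3 comparisons.

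**Figure D2:**
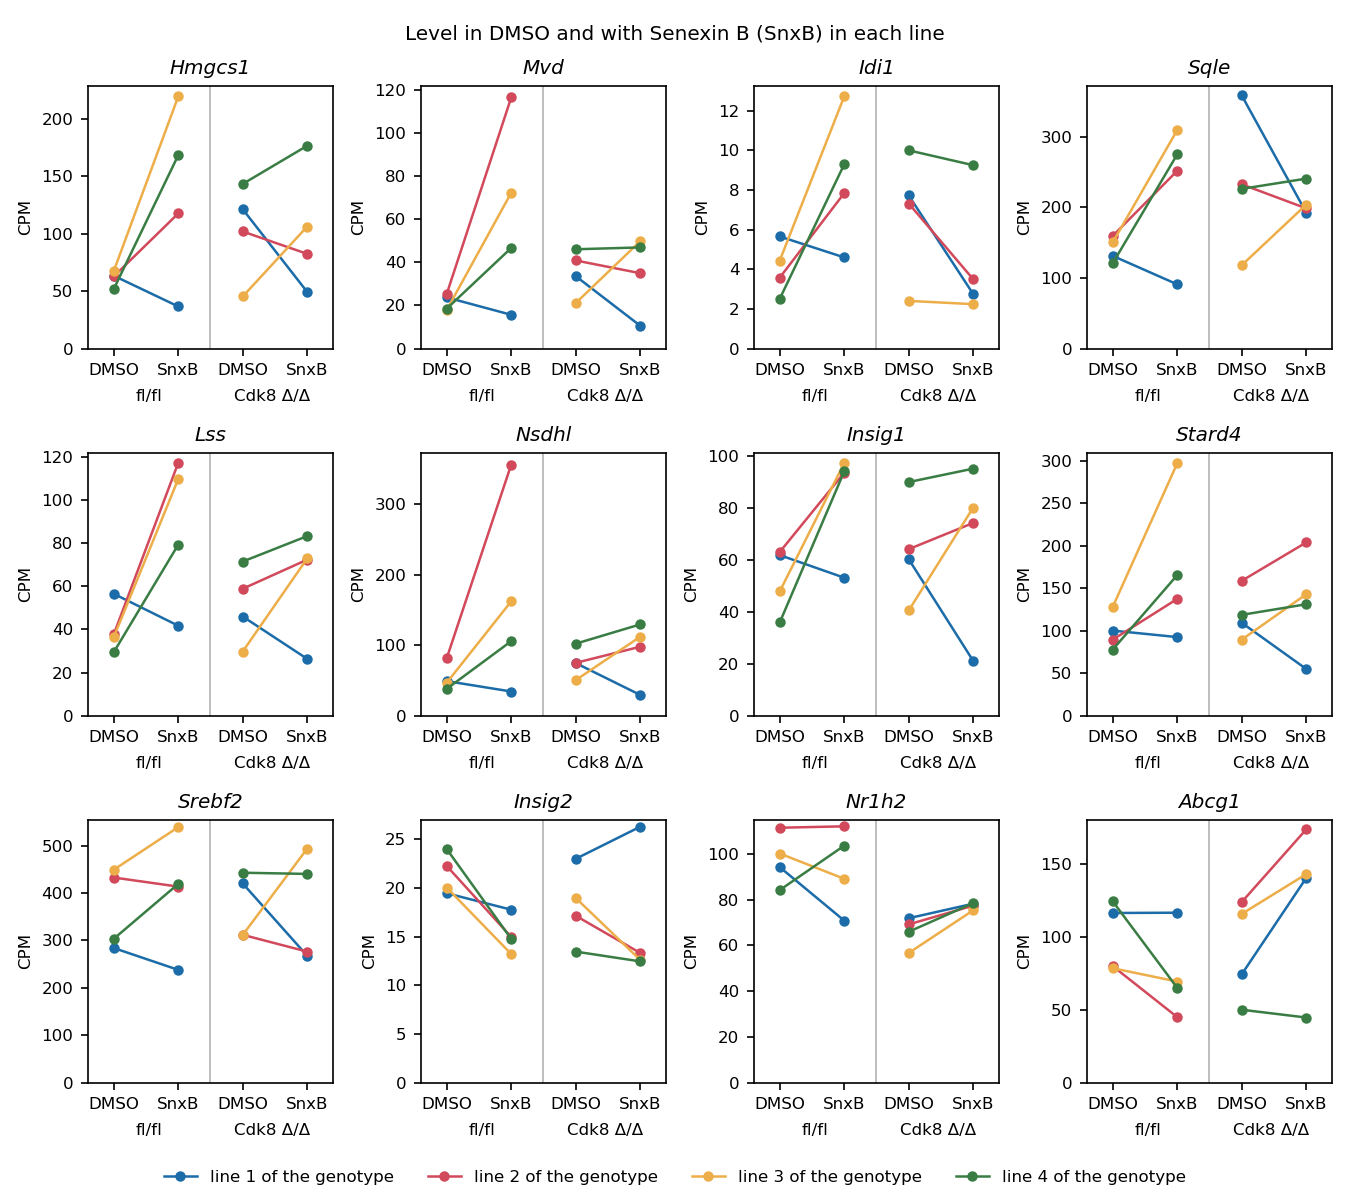
Level in CPM (linear axis from 0) of 12 genes in DMSO and with Senexin B (SnxB), with 1 coloured line for each cell line of the fl/fl and Δ/Δ genotypes. Hmgcs1, Mvd, Idi1, Sqle, Lss, Nsdhl, Insig1 and Stard4 were higher with Senexin B in fl/fl lines 2 to 4 and lower in line 1, and Nr1h2 in DMSO separated the genotypes.

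The comparison of genotypes in DMSO asks what loss of CDK8 goes with when no inhibitor is present. Of 32 genes tested, 20 were higher and 12 lower in Δ/Δ lines, with a median log2 fold change of 0.27 against 0.00 over all 13174 genes. To be called, a gene had to differ by more than 1 on the log2 scale with an adjusted p under 0.05, and edgeR's quasi-likelihood test made 0 calls among the 32, against 1 call over all genes (0.00759%). At an unadjusted p under 0.05, 4 of the 32 were higher in Δ/Δ lines (Acat2, Hmgcs1, Mvd and Sqle) against 2.38% of all genes, and 1 was lower (Nr1h2) against 2.94%. On the log2 scale Acat2 differed by 0.88 (standard error 0.25), Hmgcs1 0.75 (0.31), Mvd 0.73 (0.25) and Sqle 0.73 (0.29), each with an adjusted p of 0.897 from edgeR. Nr1h2 had -0.56 (0.13), also at 0.897, and DESeq2 gave it an adjusted p of 0.0295 with a log2 fold change of -0.56, under the fold limit. Nr1h2 was the 1 gene of the 32 whose groups did not overlap (1.66% of all genes were lower in all Δ/Δ lines than in all fl/fl lines), and 0 did so upward (1.48%). The median was 0.07 without the DMSO library of Δ/Δ line 4, 0.09 without that of Δ/Δ line 2, 0.14 without that of fl/fl line 4 and 0.15 without that of fl/fl line 1. Δ/Δ line 3 decided much of the count: without its DMSO library 12 genes had an unadjusted p under 0.05, and without any other single DMSO library between 2 and 5. Over all genes, 582 of 13554 had such a p without that library of Δ/Δ line 3, against 701 of 13174 with all libraries. Without any other single DMSO library, 487 to 1420 of all genes had one.

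With Senexin B in both genotypes the signs turned. Of 32 genes, 6 were higher and 26 lower in Δ/Δ lines, with a median log2 fold change of -0.27 against -0.00 over 13010 genes. Neither edgeR nor DESeq2 called any of the 32, and 0 of them had an unadjusted p under 0.05 in either, while edgeR gave such a p to 1.55% of all genes and called 0%. DESeq2 gave such a p to 284 of all 13010 genes and called 3. Idi1 stood at -0.96 on the log2 scale (standard error 0.52), Mvd at -0.82 (0.63) and Nsdhl at -0.84 (0.68), each with an adjusted p of 1.00 from edgeR. Abcg1 was on the other side at 0.76 (0.43, adjusted p of 1.00). For 0 of the 32 the groups did not overlap, against 0.546% of all genes upward and 0.453% downward. Single libraries moved these values. Without the fl/fl library of line 3, 11 genes rather than 6 were higher and the median was -0.05. Without that of line 1 the median was -0.47 and 5 genes had an unadjusted p under 0.05, against 400 of all 13459. The median was -0.18 without fl/fl line 2 and -0.15 without Δ/Δ line 1. Without Δ/Δ line 4, 3 genes had such a p, against 282 of all 13296.

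Senexin B against DMSO within fl/fl lines asks what the inhibitor goes with when CDK8 is present. Of 32 genes, 23 were higher and 9 lower, with a median log2 fold change of 0.64 against 0.02 over 12989 genes. The fl/fl DMSO libraries are the reference here and in the genotype comparison, so those results are not independent. edgeR called 0 of the 32 and 0% of all genes. DESeq2 called 0 of the 32, against 18 of all 12989 genes. At an unadjusted p under 0.05 edgeR had 14 genes higher against 1.89% of all genes and 1 lower (Insig2) against 1.9%. DESeq2 had 15 and 1, against 600 of all 12989 genes in either direction. The 14 were Acat2, Hmgcs1, Mvk, Pmvk, Mvd, Idi1, Fdps, Fdft1, Lss, Cyp51, Msmo1, Nsdhl, Insig1 and Stard4, which are 12 enzymes of synthesis and 2 other genes that SREBP2 is known to drive.

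The fitted log2 fold changes of this comparison were 1.62 for Nsdhl (standard error 0.61), 1.56 for Mvd (0.50), 1.47 for Acat2 (0.49), 1.15 for Hmgcs1 (0.45), 1.13 for Lss (0.33) and 1.10 for Idi1 (0.38), each with an adjusted p of 1.00 from edgeR. Sqle had 0.73 (0.33) and Stard4 0.82 (0.34). Insig1 had 0.71 (0.25) and Insig2 -0.49 (0.18). Srebf2 had 0.14 (0.27), Srebf1 0.03 (0.15) and Scap -0.05 (0.26), and 8 of the 32 genes exceeded 1 on the log2 scale. As a description, the change of Srebf2 with Senexin B in the 8 lines had a Pearson correlation of 0.89 with that of Hmgcs1, and its level one of 0.76 over the 16 libraries, which share lines. With all libraries, 15 of the 32 and 493 of all 12989 genes had an unadjusted p under 0.05. With single libraries left out, the count of 15 became 5 to 20. Without the Senexin B library of line 3 it was 5 (378 of all 13142 genes), and without that of line 2 it was 10 (523 of 13447). Without the Senexin B library of line 4 it was 9 (373 of 13387), and without that of line 1 it was 20 (1058 of 13421). Without the DMSO library of line 1 it was 9 (696 of 13097), and without that of line 2 it was 8 (337 of 13200). Without the DMSO library of line 3 it was 9 (356 of 13171), and without that of line 4 it was 6 (358 of 13415).

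**Figure D3:**
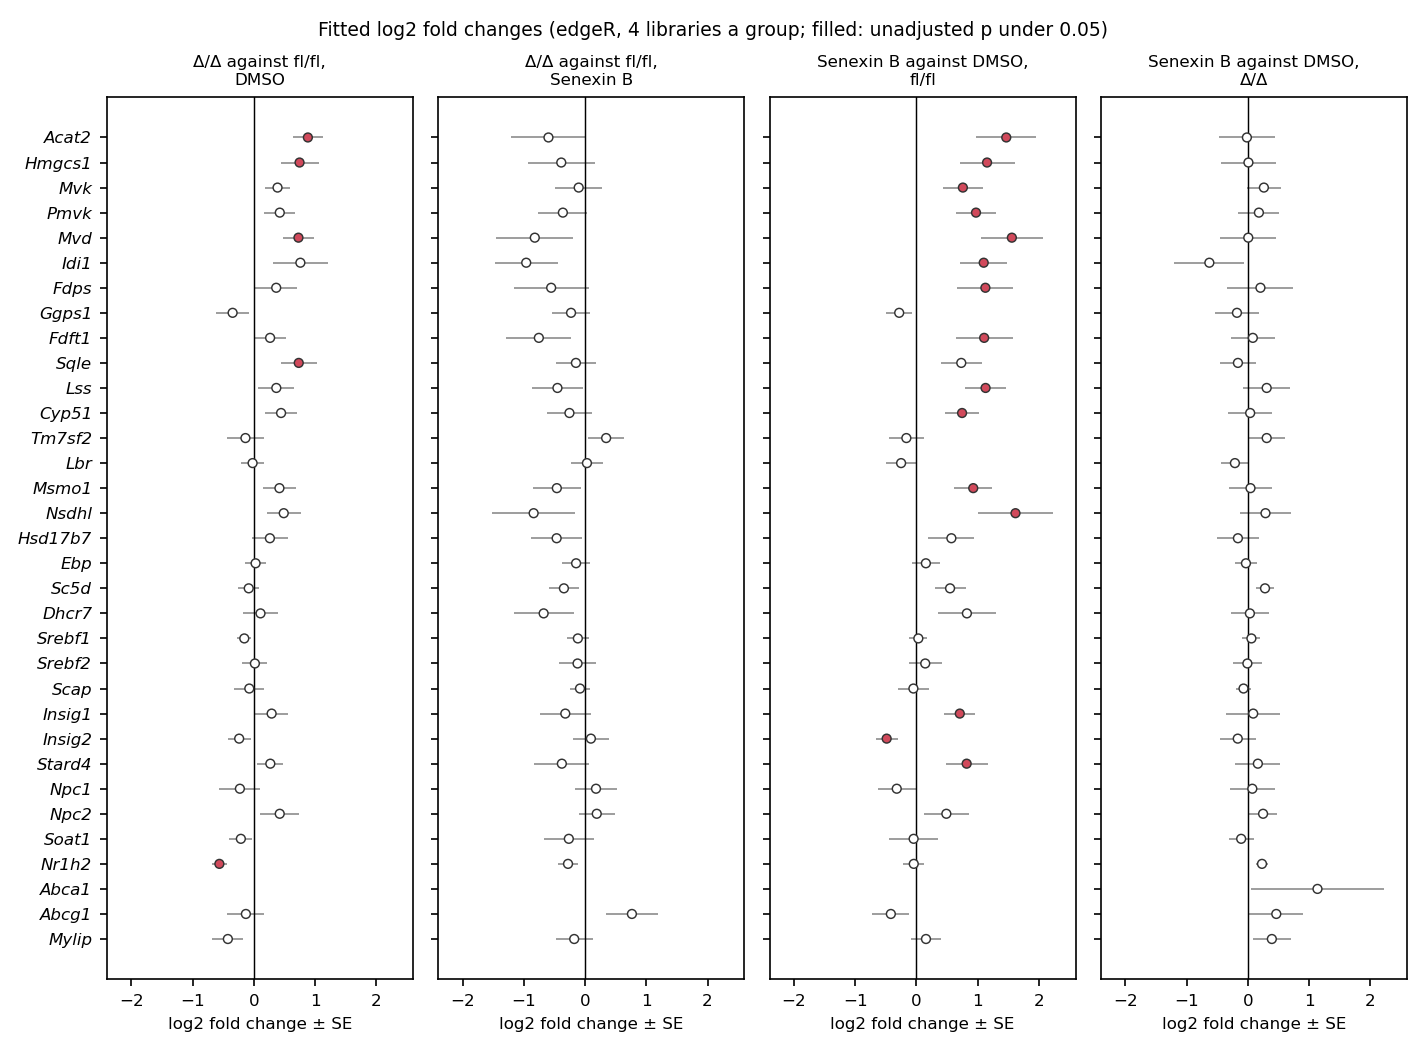
Fitted log2 fold changes with standard errors (edgeR, 4 libraries per group) of the 33 genes in 4 comparisons, between genotypes under either treatment and between treatments within either genotype; filled points have an unadjusted p under 0.05. Most enzymes lay to the right in the fl/fl Senexin B panel, whereas Ggps1, Lbr and Tm7sf2 lay to the left. In the Δ/Δ Senexin B panel most enzymes lay around 0, with Idi1 the furthest out at -0.63. Of these panels Abca1 was tested in the last alone.

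Since both treatments were given to the same lines, the line was also used as a block. Within fl/fl lines, 24 of the 32 genes were then higher, with a median of 0.58. At an unadjusted p under 0.05, 15 were higher against 4.95% of all genes and 2 lower (Insig2 and Abcg1) against 5.39%. Again 0 of the 32 were called, against 0.346% of all genes, and the smallest adjusted p among them was 0.213 for Pmvk from edgeR. Pmvk, Sc5d and Npc2 were higher in all 4 fl/fl lines (8.38% of all genes) and Insig2 was lower in all 4 (9.46%). For Npc2 in line 1 this meant only 490 CPM in DMSO and 492 CPM with Senexin B.

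The spread lay between lines. In fl/fl line 1, 17 of the 20 enzymes were lower with Senexin B, with a median change of -0.31 in log2(CPM + 1), whereas in lines 2, 3 and 4 it was 18 of 20 higher with medians of 1.07, 1.02 and 0.91. In Δ/Δ line 1, 19 of 20 were lower with a median of -0.95. Δ/Δ line 2 had 10 higher and 10 lower around 0.00, line 3 had 17 higher around 0.92, and line 4 had 15 higher around 0.09. Over all 14164 genes, between 46.8% and 51.3% were higher with Senexin B in each line, with medians between -0.02 and 0.01. Within a line most enzymes thus lay on one side, except in Δ/Δ line 2, and the side differed among lines of one genotype.

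**Figure D4:**
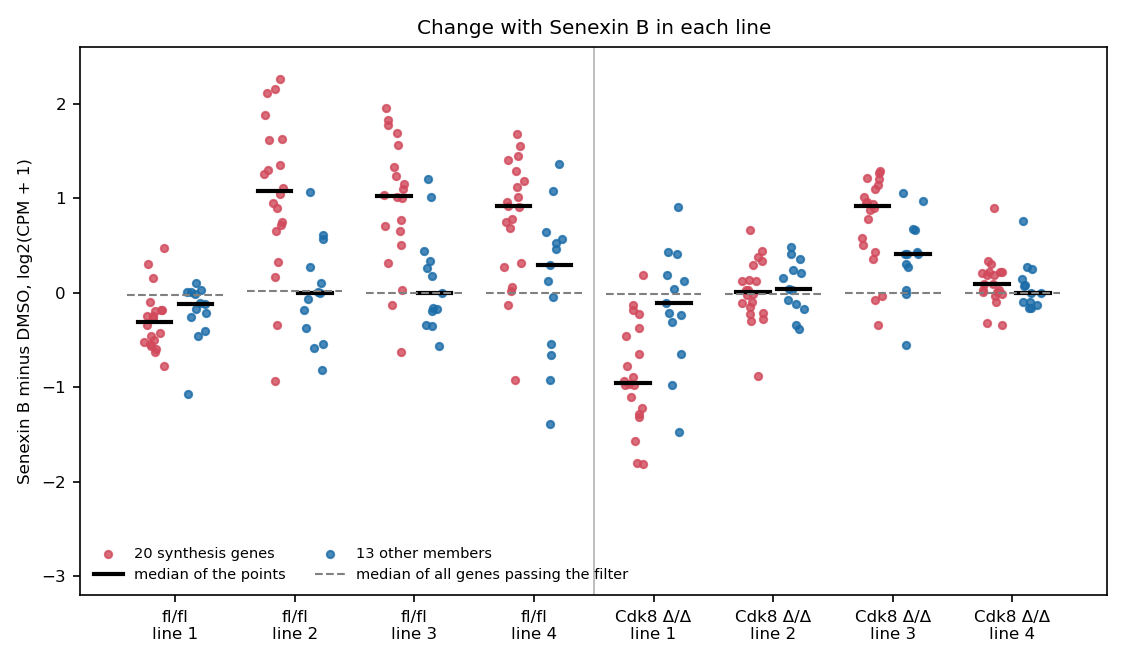
Senexin B minus DMSO difference of log2(CPM + 1) for each gene in each of the 8 lines, with the 20 synthesis genes in red, the 13 other members in blue, black bars for their medians and a dashed line for the median of all 14164 genes. The synthesis genes centred near 1 in fl/fl lines 2 to 4 and Δ/Δ line 3, near 0 in Δ/Δ lines 2 and 4, and below 0 in line 1 of both genotypes.

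To see how far single lines decide the outcome, both libraries of each line were left out in turn from the blocked fit, a step chosen after the data were seen. Without fl/fl line 1, 19 of the 32 genes had an adjusted p under 0.05 from edgeR (18 higher, and Insig2 lower), against 7.82% of all genes. Of the 19, 11 also passed the fold limit, against 538 of all 12976 genes. In that fit Nsdhl was higher by 1.80 on the log2 scale (standard error 0.17, adjusted p of 0.00043), Mvd 1.85 (0.19, 0.000593), Lss 1.55 (0.16, 0.000516) and Hmgcs1 1.44 (0.20, 0.00228). Without line 2, 3 or 4, 0 of the 32 had an adjusted p under 0.05, against 0%, 0.0698% and 0.212% of all genes, and 2, 3 and 4 of them had an unadjusted p under 0.05. Over all genes, 951 of 13196, 707 of 12890 and 826 of 13234 had such an unadjusted p in those fits. Line 1 is the line whose enzymes went against the other 3, so the fit without it describes those 3 lines and not the genotype. The DMSO library of fl/fl line 1 is also the 1 whose file header names another annotation folder, although its gene models are the same as in the other 15, and the Senexin B library of that line had the highest Cdk8 level, 89.2 CPM. Cdk19 was highest in the DMSO library of that line, 284.6 CPM against 134 to 197 CPM elsewhere. Their part in the result was not tested.

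Within Δ/Δ lines, where Cdk8 is deleted and Cdk19 was expressed (134 to 193 CPM of Cdk19 RNA), 22 of 33 genes were higher with Senexin B and 11 lower, with a median log2 fold change of 0.06 against 0.01 over 13285 genes. edgeR called 0 of the 33 and 0% of all genes, and 0 of the 33 had an unadjusted p under 0.05, against 1.83% of all genes. DESeq2 called 0 of the 33 and 0 of all genes. It gave such a p to 1 of the 33 and to 329 of all 13285 genes. Hmgcs1 stood at 0.01 (standard error 0.45), Mvd at 0.01 (0.46), Sqle at -0.16 (0.29) and Idi1 at -0.63 (0.57), each with an adjusted p of 1.00 from edgeR. With the line as a block, 0 of the 33 were called against 0.0527% of all genes. In that fit 5 had an unadjusted p under 0.05 and were higher (Sc5d, Nr1h2, Abca1, Abcg1 and Mylip) against 4.9% of all genes, and 1 was lower (Idi1) against 5.4%. For the LXR side the log2 fold changes were 0.24 for Nr1h2 (0.09), 0.99 for Abca1 (0.34), 0.39 for Abcg1 (0.16) and 0.37 for Mylip (0.14), at adjusted p-values of 0.387 to 0.468 from edgeR. Abca1 had 5 and 5 counts in line 2 and 1 and 1 in line 4. The count of 5 higher genes became 1 without both libraries of line 2, 0 without line 3, 3 without line 4 and 9 without line 1. In either direction the count of 6 became 1, 1, 4 and 9 in these fits. Over all genes and in either direction, the counts were 953 of 13200, 1214 of 13282, 1029 of 13355 and 1487 of 13233. With all lines it was 1368 of 13285. Nr1h2 and Mylip were higher in all 4 Δ/Δ lines (8.89% of all genes), and Idi1 and Lbr lower in all 4 (10.3%). For Idi1 this meant only 38 to 37 counts in line 3 and 136 to 133 in line 4. Without both libraries of Δ/Δ line 3, 7 of 32 genes were higher with a median of -0.17, and without those of line 1, 25 of 32 with a median of 0.34, so the sign over the list followed which line was in the fit.

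Over all 8 lines together, 26 of 33 genes were higher with Senexin B, with a median log2 fold change of 0.28 against 0.01 over 14164 genes. edgeR called 0 of the 33 and 0% of all genes, and 5 (Mvk, Pmvk, Lss, Nsdhl and Sc5d) had an unadjusted p under 0.05, all higher, against 4.86% of all genes. DESeq2 called 0 of the 33, against 16 of all 14164 genes, and gave such a p to 6, against 817 of all genes. The edgeR count was 14 without the Senexin B library of Δ/Δ line 1, 9 without that of fl/fl line 1, and 1 to 7 without any other single library. Over all genes, 1199 of 14470 had such a p without the first of these libraries and 784 of 14559 without the second. Without any other single library, 562 to 875 of all genes had one. Sc5d was higher by 0.41 on the log2 scale (standard error 0.15, adjusted p of 0.854 from edgeR), Lss by 0.71 (0.28, 0.889) and Pmvk by 0.57 (0.25, 0.962). With the lines as a block, 0 of the 33 were called against 0.946% of all genes, although Sc5d reached an adjusted p of 0.0965 and Insig2 0.131. In that fit 5 had an unadjusted p under 0.05 and were higher against 7.79% of all genes, and 2 were lower (Lbr and Insig2) against 8.61%. These 7 became 4 to 19 as both libraries of a line were left out, with 19 without Δ/Δ line 1. Over all genes, 2485 of 14291 had such a p without that line, against 2324 of 14164 with all lines. Without any other line, 1936 to 2434 of all genes had one. None of the 33 went the same way in all 8 lines, against 1.96% of all genes upward and 2.59% downward.

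Whether Senexin B went with a different change in the Δ/Δ lines was tested by the interaction of genotype and treatment over 16 libraries. Its log2 value is the Δ/Δ change minus the fl/fl change. Of 33 genes, 23 were below 0 and 10 above, with a median of -0.49 against -0.00 over all genes. edgeR called 0 of the 33 and 0% of all genes, and DESeq2 called 0 of the 33 and 0 of all genes. At an unadjusted p under 0.05 DESeq2 had 3 of the 33, against 81 of all 14164 genes. edgeR had 1 of the 33, against 0.473% of all genes. That gene was Idi1, at -1.72 (standard error 0.71, adjusted p of 1.00 from edgeR), followed by Mvd at -1.54 (0.73) and Acat2 at -1.48 (0.71). With the lines as a block, edgeR again called 0 of the 33 and 0% of all genes, and Abca1 (2.71, standard error 0.70) and Abcg1 (0.87, 0.27) had an unadjusted p under 0.05 above 0, against 1.62% of all genes, and Idi1 (-1.76, 0.49) below 0, against 1.62%, all at an adjusted p of 0.991. Abca1 rests on 0 to 61 counts per library and its fitted value depends on how zeros are handled. For single genes, the 4 changes of one genotype against the 4 of the other gave two-sided exact permutation p-values of 0.0286 for Abca1, the smallest that 4 against 4 allow, 0.0571 for Abcg1 and 0.0857 for Idi1, among 33 genes tested in this way. For Abca1 the genotypes were barely apart. Δ/Δ line 4 changed by -0.0053 in log2(CPM + 1) on 1 and 1 counts, and fl/fl line 2 by -0.0072 on 4 and 3. A different response of the synthesis genes in the 2 genotypes was thus not detectable with 4 lines each, which does not show that they responded alike. Without the Senexin B library of fl/fl line 1, 10 of the 33 had an unadjusted p under 0.05, against 350 of all 14559 genes. The median of the 33 was then -0.73, and without any other single library 0 to 6 of them had such a p, against 44 to 207 of all genes. The median was -0.24 without the Senexin B library of fl/fl line 2 and -0.29 without that of Δ/Δ line 1.

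Other genes of the pathway were taken from 3 further lists. Of 10 genes for SREBP processing and sterol-regulated degradation, 2 were higher and 8 lower in Δ/Δ DMSO lines (median log2 fold change -0.20), and 4 had an unadjusted p under 0.05, all lower, against 2.94% of all genes, with 0 called by edgeR. The smallest 2 p-values belonged to Erlin1, which restrains SREBP activation in the endoplasmic reticulum (-0.79, standard error 0.24), and Mbtps2, the site-2 protease (-0.47, 0.17), each with an adjusted p of 0.897 from edgeR. Erlin1 was at its 2 highest values in line 1 of both genotypes with Senexin B, 171 and 193 CPM, against 45.9 to 151 CPM in the other 14 libraries. Those are the 2 libraries in which 13 of the 20 enzymes were lowest, a match that was noticed after the values were seen. How many of all genes peaked in these libraries was not counted, and a link with the enzymes was not tested. With Senexin B in fl/fl lines the same list had 2 higher and 8 lower, and Nfya, a subunit of NF-Y, had the smallest p (-0.34, 0.15, adjusted p of 1.00 from edgeR).

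Of 12 genes for sterol movement and hydrolysis, 2 were higher and 10 lower in Δ/Δ DMSO lines (median -0.13), with 0 called and Osbpl2 (-0.58, standard error 0.21) and Gramd1c (0.95, 0.36) first by p. With Senexin B in fl/fl lines 4 were higher and 8 lower (median -0.10), and in Δ/Δ lines 6 and 6 (median 0.01). Osbpl2, an oxysterol-binding protein homolog, also had its 2 highest values in line 1 of both genotypes with Senexin B, 110.5 and 134 CPM. The same held for Osbp, at 133 and 145 CPM, so this pattern was not particular to Erlin1. Of 12 genes of the isoprenoid branches that follow farnesyl pyrophosphate (ubiquinone, dolichol and protein prenylation), 8 were higher and 4 lower with Senexin B in fl/fl lines (median 0.10), and 8 and 4 in Δ/Δ lines (median 0.06). Rabggtb, a subunit of the Rab prenyltransferase, had 0.55 (standard error 0.24) in fl/fl lines and Fnta, a subunit of farnesyltransferase, -0.36 (0.16), both at an adjusted p of 1.00 from edgeR. None of the 34 genes of these lists was called in any of the 6 comparisons.

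Outside the list, the genes whose log2(CPM + 1) ran closest to Hmgcs1 across the 16 libraries, among 8715 genes with a mean of at least 10 CPM, were Calr (Pearson correlation 0.94), Pdia3 (0.92), Ahsa2 (0.92) and Creld2 (0.91), on ranks 2 to 5. Calr and Pdia3 encode folding factors of the endoplasmic reticulum for glycoproteins. These correlations describe libraries that share lines and carry no test.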

How the data were processed

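RNA from 16 libraries was prepared with the SENSE mRNA-Seq kit and read as 50-bp single ends. The authors trimmed and aligned the reads (Trimmomatic, STAR) and deposited raw counts per gene, made with featureCounts 1.5.1 on GENCODE M13 exons (GRCm38) without a strand option, so overlapping genes on opposite strands cannot be separated. From these counts, TMM factors, CPM and quasi-likelihood tests were computed with edgeR after filterByExpr, on the groups compared and with Benjamini-Hochberg adjustment over all genes tested. Totals and precision are given with the results. The line number marks one line within a genotype: same-line libraries deviated together (lowest correlation 0.559 in fl/fl and 0.765 in Δ/Δ lines), while across genotypes it is only a number. The members and lists were chosen with earlier results of these data known. Values in every library are given for the 3 members with the smallest p in each comparison, the 3 with the widest log2 range, and Srebf2, Srebf1, Insig1, Hmgcs1, Sqle, Idi1, Stard4 and Abca1 by role. From the other lists the leading genes by p are named, and outside them the genes most like Hmgcs1. Some genes that met a rule are not reported here. Fits were tested on simulated data. Alternatives were DESeq2, RLE factors, 2 other filters, 1 fit over all libraries, the block and left-out libraries.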

Additional observations from a re-analysis of the deposited data

Results flagged for a closer look

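Of 198 groups of 4 values examined (33 genes in 4 groups of libraries, and their changes in 2 genotypes), 14 held 1 value far from the other 3, where chance gives about 1 in 20. At that rate much of the count of 14 can be chance. The groups are also not independent, since levels and changes use the same libraries and many of the genes move together. Several flags can thus rest on 1 library. Line 1 with Senexin B accounted for 6 of the 14. In the Δ/Δ line 1 library Acat2 was low at 12.2 CPM, Lss at 26.3 CPM and Insig1 at 21.1 CPM, while Insig2 was high at 26.3 CPM. In the fl/fl line 1 library Sqle was low at 91.1 CPM and Insig1 at 53.1 CPM. The changes of Lss (-0.43) and Hsd17b7 (-0.35) in fl/fl line 1, as Senexin B minus DMSO on the log2(CPM + 1) scale, were also apart from those of the other 3 lines.

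Of the other 6, Dhcr7 was low in Δ/Δ DMSO line 3 (89.4 CPM), Scap was low in Δ/Δ DMSO line 4 (138 CPM) and Lbr was low in fl/fl DMSO line 1 (420.0 CPM). Abcg1 was low in Δ/Δ line 4 with Senexin B (44.7 CPM), Sc5d was high in Δ/Δ line 2 with Senexin B (135 CPM), and Abca1 was high in fl/fl DMSO line 4 (3.64 CPM).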

How the results depend on the processing

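With 4 lines a group, differences of single genes are measured against the spread among lines, and the part of depth was not tested. The replicate block by line left 0 members called in the Senexin B comparisons and raised the count at an unadjusted p under 0.05 from 15 to 17 in fl/fl lines and from 0 to 6 in Δ/Δ lines. Over all genes the block raised this count too, from 493 to 1343 of 12989 in fl/fl lines. In Δ/Δ lines it went from 243 to 1368 of 13285. Across genotypes the number pairs nothing, and the block there left 0 called. With both libraries of a line left out of the blocked fit, chosen after seeing the data, 0 to 11 members were called in fl/fl lines. The 11 were called without line 1, where 538 of all 12976 genes were called. In Δ/Δ lines 7 to 25 members were higher. With single libraries left out, 14 to 26 were higher in Δ/Δ lines and 5 to 11 in Δ/Δ against fl/fl lines with Senexin B.

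Directions turned for values near 0. Hmgcs1 in Δ/Δ lines was -0.00108 without a filter and -0.017 with the block, and Srebf2 between genotypes in DMSO was -0.00381 without a filter. With libraries left out, Srebf1 in fl/fl lines ran from -0.046 to 0.096, Srebf2 in fl/fl lines from -0.036 to 0.32 (-0.023 to 0.22 with the block), Srebf2 between genotypes in DMSO from -0.088 to 0.12, Hmgcs1 in Δ/Δ lines from -0.38 to 0.23 (-0.42 to 0.40 with the block, -0.13 without line 4) and Idi1 over 8 lines with the block from -0.046 to 0.43 (-0.018 without fl/fl line 3). The cause was not tested.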
